A study of Mus musculus with 40 samples.

Results

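The constitutive androstane receptor CAR, encoded by Nr1i3, and 6 genes of drug metabolism and drug transport were followed in the mouse duodenum. The 6 genes were Cyp2c29, Cyp2a5, Ces1g, Abcb1a, Fmo5 and Por. They were chosen by name, spelt NR1I3, CYP2C29, CYP2A5, CES1G, ABCB1A, FMO5 and POR in the count table, as the 8 probes that carry these 7 symbols, Nr1i3 having 2 of them, out of 3045 probes for 2756 symbols. Each was described in all 40 libraries, and all 8 probes passed the filter on low counts.

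The libraries came from duodenum of wild-type male B6C3F1 mice, a hybrid laboratory strain, exposed for 28 days. The control group held 5 libraries, and each of the 5 exposed groups held 7. One group drank water with hexavalent chromium, Cr(VI), at 180 ppm, and the other groups ate a diet containing captan (6000 or 12000 ppm) or the related folpet (6000 or 16000 ppm). Captan and folpet are fungicides with a shared trichloromethylthio group on an imide nitrogen, borne by a partly saturated ring system in captan and by an aromatic one in folpet. RNA was read from scraped sections of formalin-fixed, paraffin-embedded tissue with TempO-Seq, which joins 2 neighbouring DNA probes on each targeted transcript by ligation and counts the amplified products. Whether the libraries of a group stem from separate mice is not stated in the labels; p-values therefore reflect the spread between libraries only, which may be technical.

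CAR is a nuclear receptor best known from the liver, where foreign compounds move it into the nucleus. There it pairs with the retinoid X receptor and raises the transcription of enzymes that oxidise, hydrolyse, conjugate and export drugs, Cyp2b10 being its usual reporter gene in the mouse. The epithelium of the small intestine expresses many of the same enzymes and meets ingested compounds first. Several of these genes also answer to other regulators, such as the pregnane X receptor (Nr1i2) and the oxidative stress factor NRF2, so a change in their RNA does not name the receptor behind it.

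The proximal promoters of some of the genes are shown. Printed are the members that differed most between groups (Cyp2c29, Cyp2a5 and Ces1g), and Nr1i3 and Por from those that moved in a narrow range. Abcb1a and Fmo5 also moved in a narrow range and are not printed, but their matches are given below. The printed members were thus picked by their changes, so setting them side by side tests nothing. Each sequence covers the 250 bases before the start of the gene in RefSeq, on the build GRCm38.p6, written 5′ to 3′ on the strand of the gene. All 7 genes matched the RefSeq promoter table. The windows lie at chr19:39286835-39287084 (Cyp2c29, plus strand), chr7:26835089-26835338 (Cyp2a5, plus strand), chr8:93337210-93337459 (Ces1g, minus strand), chr1:171213720-171213969 (Nr1i3, plus strand) and chr5:135688895-135689144 (Por, plus strand). Capitals mark matches to the motifs named after the sequences.
Cyp2c29: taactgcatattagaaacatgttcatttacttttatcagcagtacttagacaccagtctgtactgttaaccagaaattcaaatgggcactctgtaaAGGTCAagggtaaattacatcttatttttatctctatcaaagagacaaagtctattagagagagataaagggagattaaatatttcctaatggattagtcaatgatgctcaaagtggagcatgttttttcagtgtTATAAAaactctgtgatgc
Cyp2a5: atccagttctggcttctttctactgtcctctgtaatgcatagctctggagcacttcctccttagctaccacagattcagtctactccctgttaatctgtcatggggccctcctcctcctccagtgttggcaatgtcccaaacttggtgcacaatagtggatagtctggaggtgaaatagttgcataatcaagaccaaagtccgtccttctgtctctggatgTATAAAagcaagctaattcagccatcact
Ces1g: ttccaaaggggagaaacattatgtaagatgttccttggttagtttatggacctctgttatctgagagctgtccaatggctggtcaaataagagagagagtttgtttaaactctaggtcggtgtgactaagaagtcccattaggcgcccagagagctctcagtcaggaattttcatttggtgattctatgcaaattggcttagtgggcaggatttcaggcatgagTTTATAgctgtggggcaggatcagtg
Nr1i3: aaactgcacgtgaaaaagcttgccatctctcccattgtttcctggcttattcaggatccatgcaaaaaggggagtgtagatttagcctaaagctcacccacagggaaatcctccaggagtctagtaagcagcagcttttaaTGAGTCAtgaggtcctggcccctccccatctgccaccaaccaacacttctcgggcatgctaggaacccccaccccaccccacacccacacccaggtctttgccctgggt
Por: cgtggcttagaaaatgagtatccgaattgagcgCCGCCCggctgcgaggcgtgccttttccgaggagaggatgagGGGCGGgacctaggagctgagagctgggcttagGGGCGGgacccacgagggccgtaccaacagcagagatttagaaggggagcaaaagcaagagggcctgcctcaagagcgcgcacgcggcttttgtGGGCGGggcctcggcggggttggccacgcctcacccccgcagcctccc

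The motifs, searched on both strands, were the nuclear receptor half-sites AGGTCA and AGTTCA, a direct repeat of AGGTCA with 4 bases of any kind between the copies, TGACNNNGC (the core of the antioxidant response element), the AP-1 type element TGAGTCA, the TATA box TATAAA and the GC box GGGCGG. Every direct repeat also holds the half-site AGGTCA. The letters TATAAA lay 19 bases before the start of Cyp2c29 and 29 bases before that of Cyp2a5. The reverse complement lay 26 bases before the start of Ces1g. With Fmo5, where the match lay 195 bases away on the reverse strand, 4 of 7 members held TATAAA, against 12.4% of 32851 mouse promoters of the same length. The half-site AGGTCA lay 154 bases before Cyp2c29 and in no other member, against 14.0% of all promoters, and AGTTCA lay 176 bases before Abcb1a, against 11.8%. The AP-1 letters lay 109 bases before Nr1i3 (4.46% of all promoters). GC boxes lay in Por, which held 4 of them, and in Fmo5 (32.7%). Neither the direct repeat (0.0152% of all promoters) nor TGACNNNGC (10.2%) was found in these windows. G and C made up 65.6% of the Por window and 32.8% of the Cyp2c29 window, beside a median of 52.4% over all promoters. These matches describe letters and do not show that a factor binds.

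Total counts per library ran from 1763440 to 7904819 with a median of 4682822.5. Pancreatic acinar transcripts (18 of 32 listed genes were in the table) took 45.9 ± 21.9% of control counts (mean ± SD over 5 libraries) and 50.8 ± 24.7% of those after Cr(VI) (7 libraries). Captan libraries held 16.3 ± 14.5% at the lower and 10.2 ± 18.8% at the higher dose, and folpet libraries 17.9 ± 13.4% and 24.4 ± 10.4%. Against control the 2-sided exact permutation p, adjusted over 5 tests, was 0.720 for Cr(VI), 0.0421 for both captan groups and the lower folpet dose, and 0.0789 for the higher folpet dose. Of 21 enterocyte markers 5 were in the table. Their summed level was 17200 to 60499 CPM in control (CPM being counts relative to the scaled size of the library), and the medians of the exposed groups lay from 66536 to 81064 CPM. Fabp2, Fabp1 and Apoa1 made up most of that sum, and their medians were higher in every exposed group. Slc2a2 had a lower median than control (91.9 CPM) in every exposed group but captan 6000 ppm (102 CPM). The median of Apoc3 was lower after Cr(VI) alone (306 against 319 CPM in control). The summed level of 6 smooth muscle markers ran from 1048 to 1848 CPM in control and had medians from 666 to 932 CPM in the exposed groups. Each of them had a lower median in every exposed group, except Tagln after Cr(VI) (106 against 103 CPM in control). That of 7 immune markers had a median of 14738 CPM in control and from 3147 to 7537 CPM in the exposed groups. Cd74 made up most of the immune sum, with a median of 13843 CPM in control. The medians of Cd74, Ptprc, H2-Aa and Cd68 were lower in every exposed group, and that of Cd4 was higher in each. Lyz2 was higher after Cr(VI) alone (639 against 478 CPM in control), and Csf1r had a median of 0 in all groups. The part of these shifts in the results was not tested, beyond the fits with the acinar share given below. In whole tissue, fewer cells of a type and less RNA per cell cannot be told apart. Of 9 hepatocyte markers in the table, Fgb, Hp and Cyp7a1 were at 0 in every library, and all 9 summed to between 21.6 and 152 CPM. Cps1, above 0 in all 40 libraries, had a median of 26.8 CPM in control and higher ones in every exposed group, up to 63.8 CPM at folpet 6000 ppm. Ttr was above 0 in 37 libraries, Cyp2e1 in 21, Fga in 2, and Fgg and Mup3 in 1 each. Control replicate 5 was shallow, with 2121824 counts and 1460 probes above 0, and had 73.4% acinar counts.

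Captan raised all 7 genes at both doses, folpet raised all but Cyp2c29 at both doses, and Cr(VI) raised Nr1i3, Abcb1a, Fmo5 and Por. None fell below control by the test, edgeR's quasi-likelihood test with a Benjamini-Hochberg adjusted p under 0.05 over all tested probes. Read against the whole table, 7 of 7 member genes were higher at captan 6000 ppm, where 3.78% of the 2541 tested probes were called higher, and 7 of 7 at 12000 ppm, where 4.64% were. For folpet the count was 6 of 7 at both doses, beside 4.60% of all probes at 6000 ppm and 7.91% at 16000 ppm. For Cr(VI) it was 4 of 7 beside 2.95%. Cyp2a5, at 0 in every control and Cr(VI) library, passed the filter on low counts through fungicide libraries alone. In the fungicide groups it could therefore be called higher or not at all. The members were chosen with earlier results of these data known, so the shares are context and no test of the set. The median log2 fold change of the member genes was 0.73 for Cr(VI), 1.11 and 1.40 for the captan doses and 1.36 and 1.52 for the folpet doses, while the median over all probes lay between -0.05 and 0.01. These 5 comparisons share the same 5 control libraries and are not independent of each other.

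**Figure D1:**
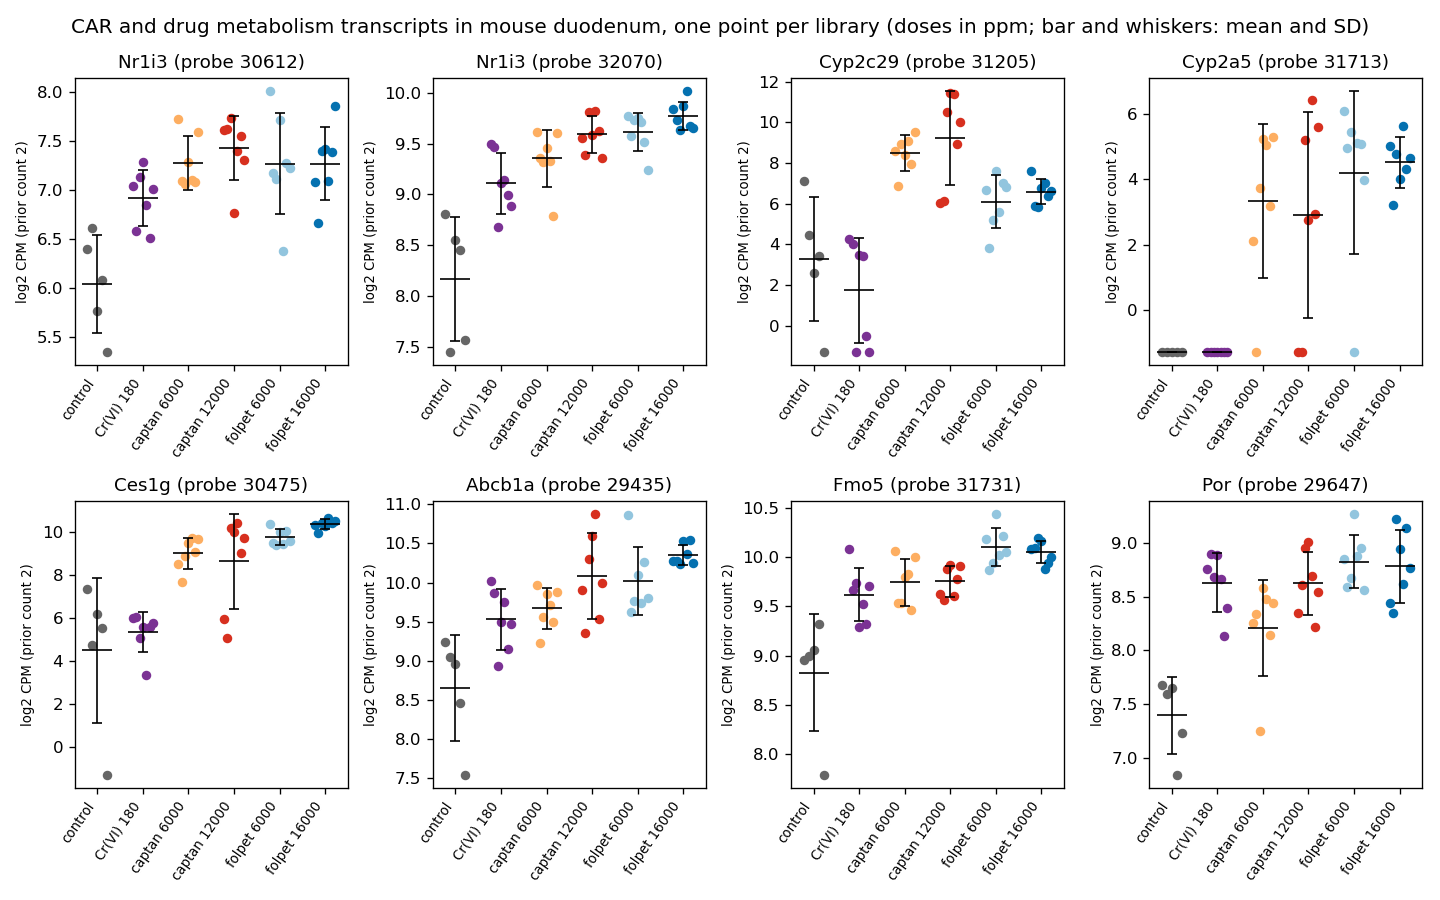
Levels of the 8 probes in log2 CPM (vertical axis, prior count 2) for each library of the 6 groups (horizontal axis, doses in ppm), with 1 point per library and a bar and whiskers for the mean and SD. Cyp2a5 sits at its lowest value in all control and Cr(VI) libraries, and replicates 1 and 2 of captan 12000 ppm sit low for Cyp2c29, Cyp2a5 and Ces1g.

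Nr1i3, the gene of the receptor itself, was higher than control in all 5 exposed groups at both probes. At probe 32070, which had more counts, the control libraries read 447, 175, 375, 349 and 189 CPM. The lowest, median and highest of 7 libraries were 408, 551 and 719 CPM after Cr(VI). They were 443, 656 and 781 CPM at captan 6000 ppm and 656, 767 and 903 CPM at captan 12000 ppm. They were 605, 837 and 873 CPM at folpet 6000 ppm and 796, 852 and 1033 CPM at folpet 16000 ppm. Of the 35 exposed libraries 33 lay above the highest control, the exceptions being 1 library each of Cr(VI) and captan 6000 ppm.

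The log2 fold change of Nr1i3 at probe 32070 was 0.87 ± 0.17 for Cr(VI) (± standard error here and below, adjusted p = 0.00104, edgeR). It was 1.11 ± 0.17 and 1.33 ± 0.17 for the lower and higher dose of captan and 1.36 ± 0.17 and 1.52 ± 0.18 for folpet, with the adjusted p (edgeR) at most 4.33e-05. In the order of mean levels, folpet 16000 ppm came first, followed by folpet 6000, captan 12000, captan 6000, Cr(VI) and control. At this probe only the last step, from Cr(VI) to control, exceeded the spread of the libraries (2-sided exact permutation test, adjusted p = 0.0492 over 39 such steps for all members). Probe 30612 gave changes of 0.82 ± 0.23, 1.19 ± 0.23, 1.34 ± 0.23, 1.23 ± 0.23 and 1.20 ± 0.23 in the same order of groups as the fold changes above, and its control libraries read 83.8, 97.3, 54.2, 67.3 and 40.5 CPM. Its call for Cr(VI) (adjusted p = 0.0215, edgeR) was lost without control replicate 3 (0.0516) or 5 (0.0716). Its order of mean levels differed, with captan 12000 ppm first. No step passed there, that from Cr(VI) to control having an adjusted p of 0.0530 (exact permutation test). The 2 probes ranked the libraries alike to a degree over all 40 (Spearman rho 0.55) and hardly at all within groups (rho 0.09 of the deviations from group means), both sharing libraries and depth.

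Cyp2c29, a cytochrome P450 that oxidises drugs and arachidonic acid, rose in both captan groups and varied widely within groups. Its control libraries read 140, 21.9, 5.64, 10.4 and 0 CPM, so control replicate 1 stood far above the rest. The lowest, median and highest library were 0, 10.2 and 18.9 CPM after Cr(VI). They were 115, 392 and 744 CPM at captan 6000 ppm, where 6 of 7 libraries lay above the highest control. The 7 libraries of captan 12000 ppm read 64.7, 69.9, 1458, 2812, 2709 and 489 CPM in replicates 1 to 6 and 1052 CPM in replicate 7, so replicates 1 and 2 lay within the control range. Folpet gave 13.6, 103 and 197 CPM at 6000 ppm and 57.7, 98.7 and 195 CPM at 16000 ppm, with 1 of 7 libraries above the highest control at each dose.

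The log2 fold change of Cyp2c29 was 3.46 ± 0.97 at captan 6000 ppm (adjusted p = 0.0277, edgeR) and 5.06 ± 1.06 at 12000 ppm (adjusted p = 0.00199). For folpet it was 1.30 ± 0.88 at 6000 ppm (95% interval -0.49 to 3.10) and 1.49 ± 0.89 at 16000 ppm (-0.32 to 3.30), neither called. For Cr(VI) it was -2.15 ± 0.90 with an unadjusted p of 0.0229 and an adjusted p of 0.155 (edgeR). Control replicate 1 moved these values: without it, edgeR gave Cyp2c29 5.32 and 6.92 for captan and 3.16 and 3.34 for folpet, and called it in both folpet groups (adjusted p = 0.0479 and 0.0245). Without control replicate 2, 3, 4 or 5 the call at captan 6000 ppm was lost, with values from 3.19 to 3.34 and adjusted p from 0.0604 to 0.0732 (edgeR). Both captan calls of Cyp2c29 were also lost in limma-voom and in an edgeR fit of only the 2 groups compared. That at 6000 ppm was lost with library totals alone as well.

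Cyp2a5, a P450 that hydroxylates coumarin and nicotine, was read in fungicide libraries alone. All 5 control and all 7 Cr(VI) libraries had a count of 0. At captan 6000 ppm the 7 libraries read 3.87, 0, 13.0, 37.3, 32.8, 8.72 and 38.8 CPM, and at 12000 ppm 0, 0, 36.0, 6.34, 85.5, 7.23 and 47.8 CPM. At folpet 6000 ppm they read 67.8, 30.7, 42.7, 0, 34.0, 33.1 and 15.4 CPM, and at 16000 ppm 31.8, 8.80, 27.0, 15.7, 49.3, 19.5 and 24.8 CPM. Thus 24 of 28 fungicide libraries held the transcript, including all 7 of the higher folpet dose.

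A floor of 3 counts per library averaged 1.10 CPM over the controls. The mean level of Cyp2a5 was 17.4-fold and 23.6-fold that floor at the lower and higher dose of captan. It was 28.9-fold and 22.9-fold the floor at the lower and higher dose of folpet. These folds allow for counting error in the controls, but not for the spread of the exposed libraries. At captan 12000 ppm Cyp2a5 averaged 26.1 ± 32.2 CPM (mean ± SD) with a median of 7.23 CPM. The edgeR test called all 4 groups (adjusted p = 0.00454, 0.00271, 0.00175 and 0.00134 in that order). At captan 12000 ppm the call was lost in limma-voom and in an edgeR fit of only the 2 groups compared. Given the spread of the exposed libraries, the folds are no lower bounds. Nor are they if low counts were removed before deposit, which no source used here tells. In mouse transcripts 31.0% of the 50-base windows of Cyp2a5 also occur in Cyp2a4, so the 2 genes may share reads. The probe named Cyp2a4 had group means of at most 1.51 CPM.

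Ces1g, a carboxylesterase that hydrolyses ester drugs and lipids, rose in all 4 fungicide groups and was not called after Cr(VI). Its control libraries read 165, 26.4, 72.5, 45.8 and 0 CPM. The lowest, median and highest library were 9.94, 48.0 and 65.5 CPM after Cr(VI). At captan 6000 ppm they were 208, 544 and 858 CPM. At captan 12000 ppm the libraries read 61.8, 33.7, 1188, 1031, 1409, 532 and 849 CPM, replicates 1 and 2 again lying within the control range. For folpet the lowest, median and highest were 691, 788 and 1340 CPM at 6000 ppm and 992, 1370 and 1632 CPM at 16000 ppm, each library being above all controls.

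For Ces1g the log2 fold change was 3.17 ± 0.70 and 3.52 ± 0.71 for the captan doses and 3.84 ± 0.72 and 4.41 ± 0.75 for the folpet doses, the lower dose first (adjusted p from 6.24e-05 to 0.00407, edgeR). It was -0.46 ± 0.62 after Cr(VI) (adjusted p = 0.790). Without control replicate 1 the values were larger, at 3.94 and 4.29 for captan and 4.61 and 5.17 for folpet. In limma-voom Ces1g kept its direction with adjusted p from 0.0629 to 0.337 in the 4 fungicide groups. Control replicate 5, at 0, entered this fit as it did that of edgeR, and its part in limma-voom was not tested. An edgeR fit of only the 2 groups compared lost the Ces1g call at both captan doses.

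**Figure D2:**
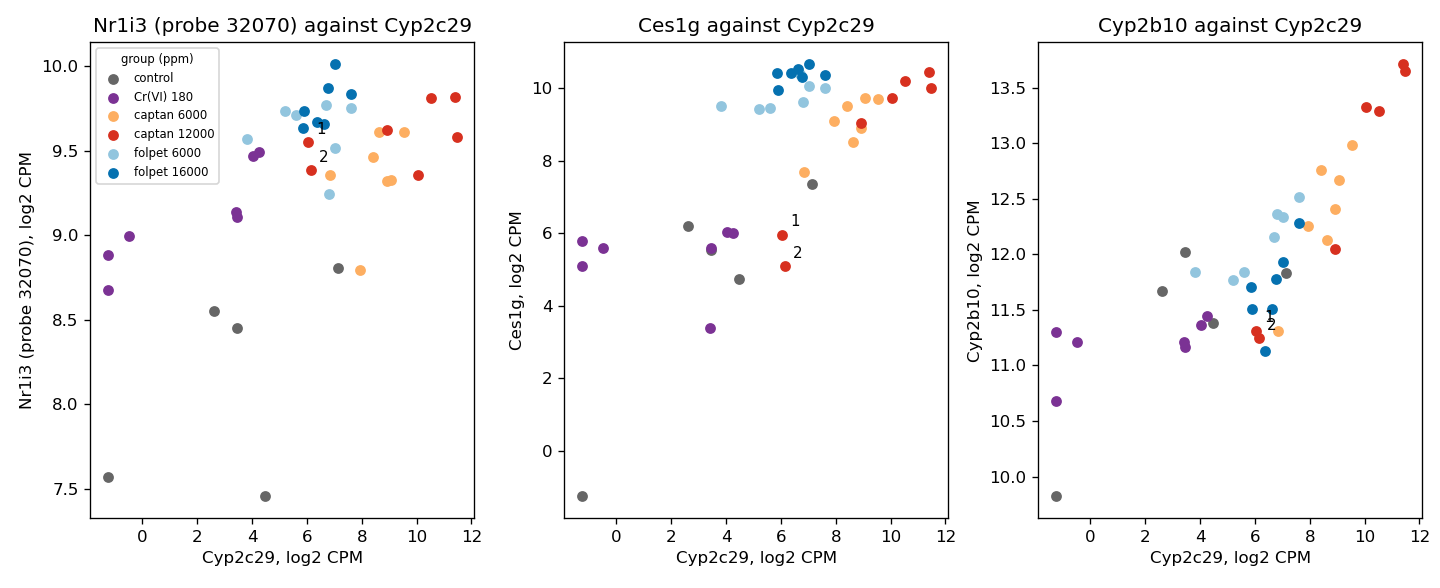
Each point is 1 of the 40 libraries, with Cyp2c29 on the horizontal axis and Nr1i3 (probe 32070), Ces1g or Cyp2b10 on the vertical axis, all in log2 CPM, coloured by group. Replicates 1 and 2 of captan 12000 ppm, marked by number, lie with the controls for Ces1g but among the exposed libraries for Nr1i3.

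Replicates 1 and 2 of captan 12000 ppm thus held low Cyp2c29 and Ces1g and no Cyp2a5 count, whereas their Nr1i3 (750 and 668 CPM at probe 32070) lay above every control. Their totals of 4336995 and 3281307 counts lay within the range of the group. Their acinar shares were 0.391% and 6.72%. What set them apart was not tested.

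Abcb1a, the P-glycoprotein pump that returns drugs to the gut lumen, rose in every exposed group. The control libraries read 605, 531, 496, 351 and 186 CPM. The lowest, median and highest library were 489, 722 and 1035 CPM after Cr(VI), 598, 842 and 1005 CPM at captan 6000 ppm and 653, 1018 and 1874 CPM at captan 12000 ppm. They were 787, 889.7 and 1857 CPM at folpet 6000 ppm and 1209.5, 1245 and 1496 CPM at folpet 16000 ppm. The log2 fold changes were 0.81 ± 0.24 for Cr(VI). Captan gave 0.93 ± 0.24 and 1.40 ± 0.24, and folpet 1.32 ± 0.24 and 1.60 ± 0.25. The adjusted p (edgeR) was 0.0361 for Cr(VI) and 0.0133 or less for the others. The Abcb1a call for Cr(VI) was lost without control replicate 4 (adjusted p = 0.0808, edgeR) or 5 (0.114) or without Cr(VI) replicate 1 (0.0790) or 2 (0.0592), and that for captan 6000 ppm without control replicate 5 (0.0671). Of the 50-base windows of Abcb1a transcripts 15.5% also occur in its near copy Abcb1b.

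Fmo5, a flavin monooxygenase of the gut and liver, rose in every exposed group. Its control libraries read 495, 509, 534, 638 and 222 CPM, the lowest being replicate 5. The groups ran from 628 to 1084 CPM after Cr(VI), from 702 to 1066 and from 757 to 965 CPM in the captan groups, and from 933 to 1380.1 and from 939.7 to 1168 CPM in the folpet groups. All but 1 of the 35 exposed libraries exceeded the highest control. The log2 fold changes were 0.73 ± 0.16 for Cr(VI) and 0.85 ± 0.16 at both captan doses, and 1.20 ± 0.16 and 1.14 ± 0.16 for folpet (adjusted p at most 0.0022, edgeR). In the order of mean levels, folpet 6000 ppm came first, followed by folpet 16000, captan 12000, captan 6000, Cr(VI) and control. The steps from folpet 16000 to captan 12000 ppm (0.30 log2) and from Cr(VI) to control (0.79) exceeded the spread of the libraries (exact permutation test, adjusted p = 0.0492 for both). For Cyp2c29 the single such step was that from captan 6000 to folpet 16000 ppm (1.88 log2, adjusted p = 0.0492, same test). The steps between captan and folpet named here join unmatched doses, so compound and dose cannot be told apart in them. For Cyp2a5, Ces1g, Abcb1a, Por and probe 30612 of Nr1i3 no step passed.

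Por, the reductase that passes electrons to all microsomal P450 enzymes, rose in every exposed group. The control libraries read 204, 192, 200.2, 115 and 149 CPM. Cr(VI) gave 280.2, 411 and 477 CPM as the lowest, median and highest library. Captan gave 152, 323 and 382 CPM at 6000 ppm and 297, 391 and 515 CPM at 12000 ppm, and folpet gave 379, 463 and 615 CPM and 325, 436 and 597 CPM. The lowest library of captan 6000 ppm was the single exposed library below the highest control. The log2 fold changes were 1.22 ± 0.19 for Cr(VI), 0.83 ± 0.19 and 1.22 ± 0.19 for the captan doses and 1.41 ± 0.19 and 1.39 ± 0.19 for the folpet doses (adjusted p at most 0.00374, edgeR). Por was thus the member with the largest called change after Cr(VI).

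**Figure D3:**
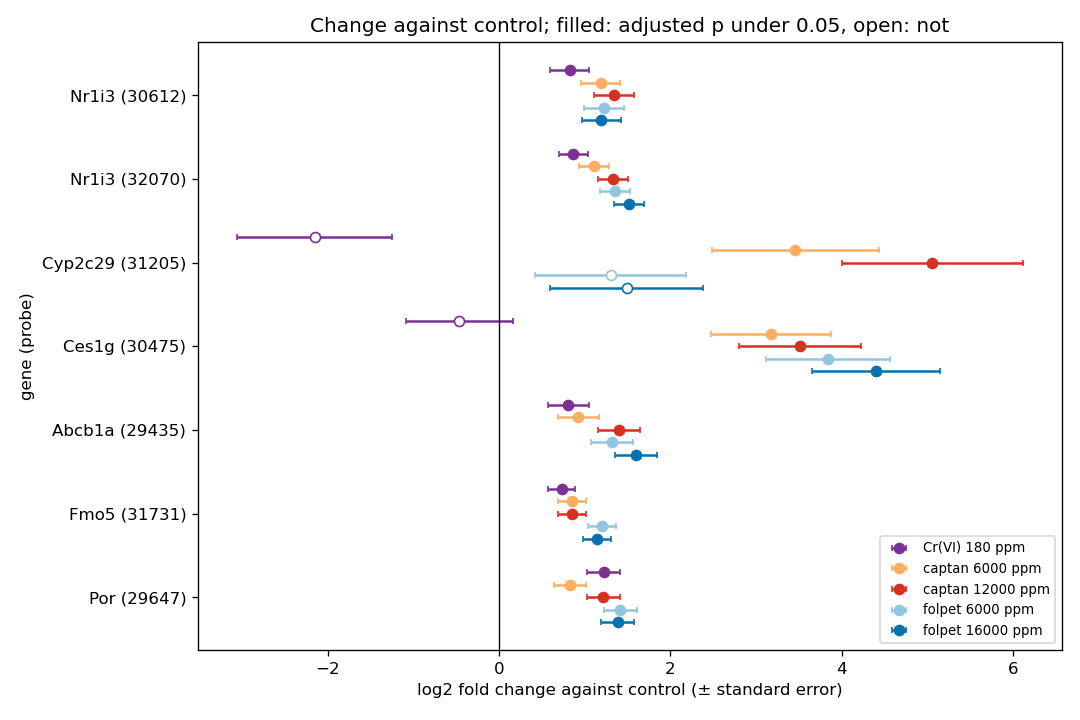
Log2 fold change against control with its standard error (horizontal axis) for each gene and probe (vertical axis) in the 5 exposed groups, filled where the adjusted p was under 0.05; Cyp2a5 is left out because its controls were all at 0. Cyp2c29 and Ces1g spread from below 0 after Cr(VI) to 5.06 and 4.41, while the other probes lie between 0.73 and 1.60.

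The acinar share of the libraries moved with these results. Over the 40 libraries the Spearman rho of a member's level with the acinar share lay between -0.56 (Cyp2c29) and -0.31 (Por), and within groups between -0.61 (Abcb1a) and -0.01 (Cyp2a5), the shares and levels coming from the same counts. With the share as a covariate in the edgeR fit, the number of member genes called against control was 4 for Cr(VI), 4 and 7 with captan and 6 and 6 with folpet. Without the 7 libraries of over 50% acinar counts it was 3 for Cr(VI), 2 and 7 with captan and 6 and 6 with folpet. The counts thus held except at captan 6000 ppm and, by 1 gene, for Cr(VI). Of all probes the covariate fit called 168, 75, 86, 101 and 278 in the same order, in either direction. Without those libraries 47, 63, 90, 104 and 285 were called. EdgeR with DESeq2 size factors, where 4, 7, 7, 6 and 6 member genes were called, gave 158, 139, 151, 153 and 318 of all probes. At captan 6000 ppm the log2 fold changes of the genes that lost their call kept their sign. Cyp2c29 stood at 2.88 in both fits, Por at 0.65 and 0.64 and Abcb1a at 0.58 and 0.62, with the covariate and without those libraries. Ces1g, lost only without those libraries, stood at 2.73 there, and Cyp2a5 was lost likewise.

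The dose steps asked whether the higher dose of each fungicide gave higher levels. No member gene was called for captan 12000 against 6000 ppm, where 0% of all probes were called by edgeR, DESeq2 or limma-voom. At an unadjusted p under 0.05 edgeR gave 148 of all probes and 3 member genes: Cyp2c29 at 1.60 ± 0.78, Abcb1a at 0.48 ± 0.21 and Por at 0.39 ± 0.17 log2. No member gene was called for folpet 16000 against 6000 ppm in edgeR, DESeq2 or limma-voom, where edgeR called 1.73% of all probes. No member had an unadjusted p under 0.05 in edgeR, beside 268 of all probes. The largest value there was Ces1g at 0.57 ± 0.56 (95% interval -0.57 to 1.71), which a fit of those 2 groups alone called (0.56, adjusted p = 0.0139, edgeR).

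Captan and folpet, which differ in the ring system that bears the shared side group, were compared at their matched dose of 6000 ppm over 8 probes. No member gene was called by edgeR, beside 0.157% of all probes. At an unadjusted p under 0.05 edgeR gave 130 of all probes and 3 member genes. Cyp2c29 was higher with captan by 2.16 ± 0.80 log2 (95% interval 0.54 to 3.78, adjusted p = 0.454), the captan libraries running from 115 to 744 CPM and the folpet libraries from 13.6 to 197 CPM. Por was lower with captan, at -0.58 ± 0.17 (-0.92 to -0.25, adjusted p = 0.234), and so was Fmo5, at -0.35 ± 0.14 (-0.63 to -0.07, adjusted p = 0.544). DESeq2 called Por (-0.59, adjusted p = 0.0389), and limma-voom called none. For the other members the intervals included 0: -0.56 to 0.06 and -0.45 to 0.36 for Nr1i3 (probes 32070 and 30612), -2.79 to 1.34 for Cyp2a5, -1.80 to 0.47 for Ces1g and -0.82 to 0.04 for Abcb1a. These wide intervals do not show that the fungicides act alike. The higher doses differ, 12000 ppm for captan and 16000 ppm for folpet, so no fold change between them was fitted with edgeR. Only the steps in the order of mean levels set these groups against each other. Cyp2c29 averaged 1236 ± 1156 CPM in the former and 104 ± 47.5 CPM in the latter (n = 7 each), and Ces1g 729 ± 539 and 1348 ± 198 CPM.

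The fungicide groups were also set directly against Cr(VI), which tests whether the members answered differently. Cyp2a5, at 0 in every Cr(VI) library, could only be called higher here or not at all, and is among the genes counted. Against Cr(VI), captan 12000 ppm was higher for 3 of 7 member genes, where 3.15% of all probes were called higher. These were Cyp2c29 (7.21 ± 1.02 log2, adjusted p = 3.01e-05, edgeR), Cyp2a5 (mean 28.3-fold the floor, no bound, adjusted p = 0.000693) and Ces1g (3.98 ± 0.64, adjusted p = 0.000135). Folpet 16000 ppm was higher for 5 of 7 member genes, where 5.35% of all probes were. They were Cyp2c29 (3.64 ± 0.89, adjusted p = 0.00652, edgeR), Cyp2a5 (mean 27.4-fold the floor, no bound, adjusted p = 0.000359), Ces1g (4.87 ± 0.66, adjusted p = 5.41e-06), Abcb1a (0.79 ± 0.22, adjusted p = 0.0142) and Nr1i3 at probe 32070 (0.65 ± 0.15, adjusted p = 0.00357). Probe 30612 of Nr1i3 was not called (0.37 ± 0.20, adjusted p = 0.333, edgeR).

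For Por the difference from Cr(VI) was -0.00 ± 0.17 for captan 12000 ppm (95% interval -0.34 to 0.33) and 0.16 ± 0.17 for folpet 16000 ppm (-0.17 to 0.50), and for Fmo5 0.12 ± 0.14 (-0.17 to 0.40) and 0.41 ± 0.14 (0.13 to 0.70), none called. These 2 comparisons share the Cr(VI) libraries. Of the 28 fungicide libraries, 27 exceeded every Cr(VI) library for Cyp2c29, 26 for Ces1g and 24 for Cyp2a5, but 7 for Por and 6 for Fmo5. Leaving out single libraries brought calls in addition: for captan 12000 ppm Nr1i3 at probe 32070 passed without captan replicate 2 or 7 or Cr(VI) replicate 1 or 2 (0.51 to 0.54, adjusted p from 0.0350 to 0.0453), and Abcb1a without captan replicate 2 (0.70, adjusted p = 0.0381), all in edgeR. For folpet 16000 ppm Fmo5 passed without Cr(VI) replicate 1 (0.50, adjusted p = 0.0220).

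Other settings took calls against Cr(VI) away. In limma-voom all 3 genes called for captan 12000 ppm were lost (adjusted p = 0.166 for Cyp2c29, 0.113 for Cyp2a5 and 0.0606 for Ces1g), as was Cyp2c29 for folpet 16000 ppm (0.402). For folpet 16000 ppm edgeR with the acinar share as covariate lost Nr1i3 at probe 32070 (0.49, adjusted p = 0.0591) and Abcb1a (0.45, adjusted p = 0.214). With library totals alone it lost the same 2 (adjusted p = 0.107 and 0.104). Without the libraries of over 50% acinar counts it lost Nr1i3 (0.55, adjusted p = 0.0727), Abcb1a (0.67, adjusted p = 0.135) and Cyp2c29 (3.37, adjusted p = 0.113), and for captan 12000 ppm Cyp2a5 (adjusted p = 0.0662).

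Other genes of the pathway were read from 4 lists. Of 9 tested receptors and partners, 1 was called after Cr(VI) and 3 at folpet 6000 ppm (2 higher, 1 lower), and none in the other exposed groups. Of all probes 2.95% were called higher after Cr(VI) and 4.60% at folpet 6000 ppm. The share of all probes called lower is not given here, so lowered genes of these lists are not read against the whole table. Ppara, the fatty acid receptor, rose in both (0.86 ± 0.20 and 0.88 ± 0.20 log2). At folpet 6000 ppm Nr1i2, the pregnane X receptor and nearest relative of CAR, rose from 353 ± 138 to 583 ± 98.4 CPM (0.72 ± 0.19, adjusted p = 0.0136, edgeR), and the glucocorticoid receptor Nr3c1 fell by 0.63 ± 0.19. In the other 4 groups Nr1i2 had adjusted p from 0.172 to 0.873, and folpet 16000 ppm averaged 388 ± 89.2 CPM.

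Of 13 tested oxidation enzymes, captan 12000 ppm raised 4, folpet 16000 ppm raised 2 and lowered 1, Cr(VI) and folpet 6000 ppm raised 1 each and captan 6000 ppm raised none, where 4.64%, 7.91%, 2.95%, 4.60% and 3.78% of all probes were called higher. Cyp2b10 had control libraries at 3641, 2669, 3256, 4150.4 and 904 CPM. Its lowest, median and highest libraries were 2432, 10019 and 13419 CPM at captan 12000 ppm, where replicates 1 and 2 were the lowest, as for Cyp2c29. It rose there by 1.45 ± 0.35 log2 (adjusted p = 0.00895, edgeR). It read 5551 ± 1823 CPM at captan 6000 ppm (0.92 ± 0.35, adjusted p = 0.117), 4523 ± 933 and 3403 ± 879 CPM with folpet (0.63 ± 0.34 and 0.22 ± 0.34, not called) and 2377 ± 366 CPM after Cr(VI). Alas1, the first enzyme of haem synthesis, which supplies the P450 cofactor, rose after Cr(VI) (0.75 ± 0.23), at captan 12000 ppm (1.13 ± 0.23) and at both folpet doses (0.80 ± 0.23 and 1.03 ± 0.23). The retinal dehydrogenase Aldh1a1 rose at captan 12000 ppm (1.35 ± 0.41) and folpet 16000 ppm (1.53 ± 0.42), and Cyp2c65 at captan 12000 ppm (0.91 ± 0.25). Cyp3a41a fell at folpet 16000 ppm (-1.90 ± 0.50, from 431 ± 608 to 116 ± 22.8 CPM). One control library, at 1511 CPM, carried that control mean: the median control was 209.6 and the lowest 49.9 CPM, and no folpet library lay below the lowest control.

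**Figure D4:**
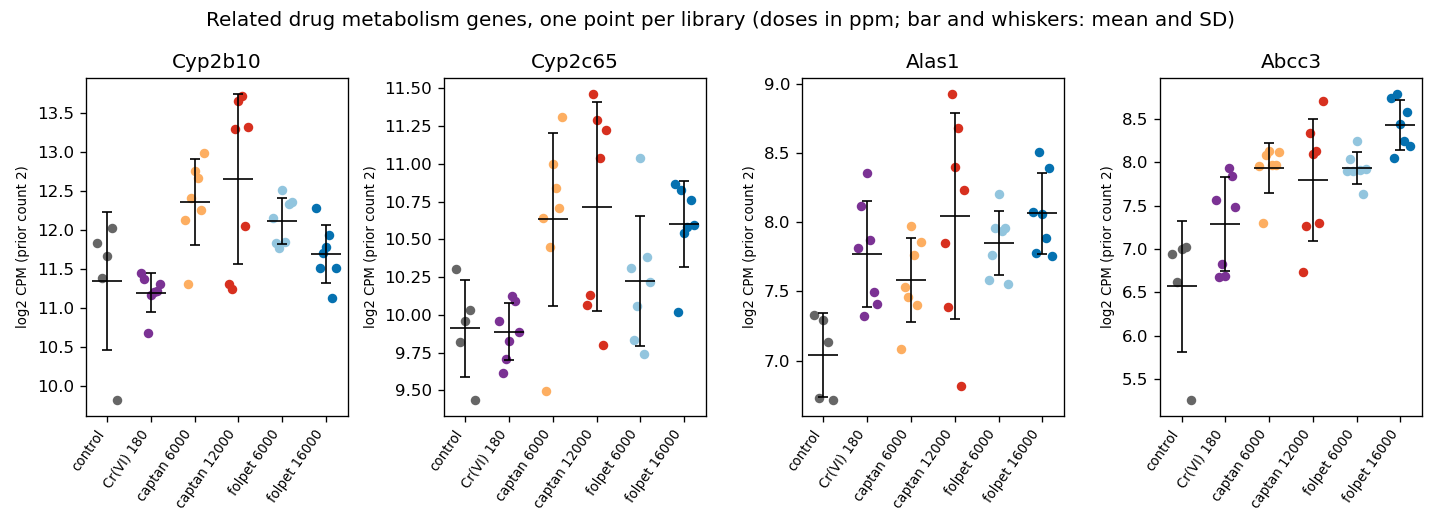
Levels of Cyp2b10, Cyp2c65, Alas1 and Abcc3 in log2 CPM (vertical axis, prior count 2) for each library of the 6 groups (horizontal axis, doses in ppm), with a bar and whiskers for the mean and SD. Replicates 1 and 2 of captan 12000 ppm are the 2 lowest of their group for Cyp2b10, and Abcc3 averages highest at folpet 16000 ppm.

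Of 14 tested enzymes of hydrolysis and conjugation, 6 and 7 rose at the captan doses, beside 3.78% and 4.64% of all probes. At the folpet doses 5 and 7 rose, beside 4.60% and 7.91%. After Cr(VI) 1, the glucuronosyltransferase Ugt2b35, was called and fell by 0.95 ± 0.28, with no all-probe share of lower calls beside it. The glutathione transferase Gsta2 had the largest change of the list in each fungicide group, at 3.37 to 4.27 log2. Its relative Gsta1 rose by 2.31 to 3.12 and the epoxide hydrolase Ephx1 by 2.29 to 2.87. Gstm3 rose at the higher doses of captan (1.78 ± 0.48) and folpet (1.68 ± 0.48), and Gstp1 in all 4 fungicide groups (0.85 ± 0.20 and 0.97 ± 0.20 at 6000 ppm of captan and folpet). In the 4 fungicide groups 3.78% to 7.91% of all probes were called higher. Of 6 tested drug transporters, Abcc3, which exports conjugates across the basolateral membrane, was the single one called against control. It rose from 103 ± 38.7 CPM to between 244 and 351 CPM in the 4 fungicide groups (1.23 to 1.76 log2, adjusted p at most 0.00196, edgeR) and read 165 ± 59.9 CPM after Cr(VI) (0.67 ± 0.26, adjusted p = 0.114).

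The tested probes most like each member over the 40 libraries were ranked by the Spearman rho of log2 CPM. The rho of deviations from group means is in brackets. Depth and acinar share differed between libraries and act on both probes of a pair, and their part in the rho was not tested. Nr1i3 was most like Abcb1a (0.85 [0.53]), the catalase gene Cat (0.80 [0.39]) and Ces1g (0.80 [0.45]). Cyp2c29 was most like Cyp2b10 (0.84 [0.70]), Cyp2c65 (0.76 [0.57]) and Iyd (0.75 [0.61]). Ces1g was most like Gsta1 (0.90 [0.70]), the quinone reductase Nqo1 (0.90 [0.71]) and the glutathione reductase Gsr (0.90 [0.53]), and Cyp2a5 like the cystine transporter Slc7a11 (0.87 [0.55]), Pgrmc1 (0.84 [0.50]) and Gstp1 (0.83 [0.60]). Abcb1a was most like Nr1i3, Gsta2 (0.83 [0.46]) and Ces1g (0.83 [0.60]). Fmo5 was most like Taldo1 (0.78 [0.41]), Fis1 (0.75 [0.46]) and Bpnt1 (0.74 [0.52]), and Por like Alas1 (0.78 [0.68]), Pold4 (0.76 [0.63]) and Abcb1a (0.67 [0.55]).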

How the data were processed

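The table deposited by the authors lists, for 40 libraries, unnormalized counts of each probe in whole numbers. Bowtie (version not stated), bcl2fastq (2.17.1.14) and the mouse build mm9 appear in the submitters' processing notes without their roles. Probe sequences and positions were not used here. Library titles tied each column to its sample, and the exposure in the labels set its group; a replicate number is only a name, given in accession order. Of all values 28.5% were 0, and of those above 0 only 1.01% lay from 1 to 5, against 2.93% from 21 to 25. The assay amplifies by PCR, so floors cover counting error only.

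Testing used edgeR 4.0.16 in R 4.3.3. After filterByExpr (minimum count 10, minimum total 15) and TMM scaling, all 40 libraries entered 1 robust quasi-likelihood fit by group (34 residual degrees of freedom), with 2-sided tests and Benjamini-Hochberg adjustment over 2541 probes. Standard errors are approximate, the size of the log2 fold change over the root of F. CPM uses TMM-scaled totals, and log2 CPM a prior count of 2. The fit was tested on simulated data. Permutation tests used SciPy 1.17.1 (Python 3.11.15). DESeq2 1.42.0 and limma-voom (limma 3.58.1) were among the alternatives.

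The members, lists and tests were chosen with earlier results of these data known. Every member probe is described; from the lists, up to 4 called genes with the largest change per comparison with control are named, and the 3 probes most like each member. The other list values, such as those of Nr1i2 and Cyp2b10 where they were not called, were chosen after their values were seen. Transcripts that share 50-base windows were found in GENCODE vM21.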

Additional observations from a re-analysis of the deposited data

Results flagged for a closer look

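Of 46 sets of libraries (1 probe in 1 group, leaving out sets all at 0), 5 held a library far below the rest of its group, and chance gives about 1 in 20. They were captan 6000 ppm replicate 6 for Nr1i3 at probe 32070 (8.79 log2 CPM, 443 against 640.0 CPM in the next library), captan 6000 ppm replicate 3 for Por (7.25 log2 CPM, 152 against 283 CPM), Cr(VI) replicate 5 for Ces1g (3.37 log2 CPM, 9.94 against 33.9 CPM), control replicate 5 for Fmo5 (7.79 log2 CPM, 222 against 495 CPM) and folpet 6000 ppm replicate 4 for Cyp2a5, which had a count of 0 (-1.26 log2 CPM with the prior count).

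The response to a fungicide differed from that to Cr(VI), by a direct edgeR test of the 2 groups, for 3 genes with captan 12000 ppm and 5 with folpet 16000 ppm. Of all probes 3.15% and 5.35% were called higher in these comparisons. Cyp2a5, which is among the genes counted, passed the filter through fungicide libraries alone and could only be called higher or not at all. With captan, Cyp2c29 was higher by 7.21, Cyp2a5 by 9.97 and Ces1g by 3.98 log2. With folpet, Cyp2c29 was higher by 3.64, Cyp2a5 by 9.92, Ces1g by 4.87, Nr1i3 at probe 32070 by 0.65 and Abcb1a by 0.79 log2. The fitted values of Cyp2a5 depend on the prior count, since all 7 Cr(VI) libraries were at 0, and are no bounds.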

How the results depend on the processing

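Of 1160 values of single member probes under alternatives, none changed sign where the difference had passed the test; 66 lost a call and 17 gained one. The number of member genes called moved by over 1.5 times in the following cases. With library totals alone it was 0 in place of 4 for Cr(VI) against control, 3 in place of 7 for captan 6000 ppm, 6 in place of 3 for captan 12000 ppm against Cr(VI) and 3 in place of 5 for folpet 16000 ppm against Cr(VI). In the same order, library totals alone called 14, 32, 504 and 66 of all probes, in either direction. EdgeR with DESeq2 size factors called 158, 139, 119 and 180 there, and 4, 7, 3 and 5 member genes. The scaling by totals alone moved the median of all probes by -0.27, 0.32 and 0.44 log2 for Cr(VI), captan 6000 and captan 12000 ppm against control. Fitting only the 2 groups compared left 1 member gene for Cr(VI), 2 for captan 6000 ppm and 3 for captan 12000 ppm. For the folpet dose step it gave 1 (Ces1g) in place of 0. These fits called 28, 29, 29 and 113 of all probes in that order. With limma-voom 4 member genes were called for captan 12000 ppm against control and 0 against Cr(VI), beside 139 and 102 of all probes. With DESeq2 1 member gene (Por) was called for captan against folpet at 6000 ppm, beside 13 of all probes. The acinar share as covariate left 4 member genes for captan 6000 ppm and 3 for folpet 16000 ppm against Cr(VI), beside 75 and 160 of all probes. Leaving out libraries with over 50% acinar counts left 2 in both, beside 63 and 111 of all probes. Leaving out 1 library at a time gave between 3 and 5 member genes for captan 12000 ppm against Cr(VI), the 5 being without captan replicate 2. For folpet against control no alternative moved the count of member genes that far. The cause of these moves was not tested. No paired analysis was possible because the labels give no replicate numbers. Depth sets the floor for Cyp2a5, read at 0 in every control and Cr(VI) library and in 4 fungicide libraries; its part in those zeros was not tested.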
